A study of Mus musculus with 12 samples.

Results

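The Th1 differentiation genes were Tbx21, Ifng, Cxcr3, Il12rb1, Il12rb2, Stat4, Hlx, Il18r1, Il18rap and Runx3, taken by gene symbol from the 45777 genes listed for each library, and all 10 were found. They were measured by sequencing poly(A) RNA of spleen CD4+ T cells of wild type C57BL/6 mice, 7 weeks old by the labels, which had been held for 3 days with anti-CD3 (0.5 µg/ml). The cultures received no drug (Control), Metformin, FK506, or Metformin+FK506, with 3 libraries in each of the 4 groups. Metformin is a biguanide used against diabetes that inhibits the mitochondrial respiratory chain and activates the kinase AMPK. FK506 (tacrolimus) inhibits calcineurin, the phosphatase that lets NFAT factors enter the nucleus after the T cell receptor is engaged. The drug doses of these cultures are not given in the sources used here, and the methods also list soluble anti-CD28, which the labels do not name. Nothing says whether the libraries of a group came from separate mice, so the p-values below measure the spread between libraries, which may be technical.

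Naive CD4+ T cells become Th1 cells, which secrete interferon gamma and drive cellular immunity against intracellular microbes. The T cell receptor and interferon gamma induce T-bet (the product of Tbx21), T-bet with its partners Runx3 and Hlx opens the Ifng gene and induces Il12rb2, and IL-12 then signals through STAT4. IL-18 acts late in this sequence, through a receptor made of the chains encoded by Il18r1 and Il18rap, and CXCR3 is the chemokine receptor that takes Th1 cells to inflamed tissue.

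The 10 genes did not move as a block. In the presence of FK506, Tbx21, Ifng, Runx3 and both IL-12 receptor chains were lower than in Control, while Stat4, Hlx, Cxcr3 and both IL-18 receptor chains were higher. Metformin alone lowered Tbx21, Ifng, Runx3, Hlx and both IL-12 receptor chains and raised Stat4, Cxcr3 and both IL-18 receptor chains. The comparisons against Control share the same 3 Control libraries. Added to FK506, metformin raised 7 of the 10, where 15.6% of all genes tested were higher, and each of the 7 by a log2 fold change under 1. Among them were Tbx21, Ifng and both IL-12 receptor chains, which it had lowered without FK506.

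Levels are given as FPKM, the fragments counted on a gene scaled to the length of its transcript and the size of the library, as the authors deposited them. Changes are log2 fold changes with their standard error (SE), from the quasi-likelihood test of edgeR on the deposited read counts with all 12 libraries in 1 fit. A gene was called changed where its p-value, adjusted by the Benjamini-Hochberg method over the 15197 genes tested, was under 0.05. All 10 genes passed the filter on low values (FPKM of at least 0.5 in at least 3 libraries). The libraries held between 43402632 and 64290105 counts. Because FPKM and edgeR scale the libraries differently, a fold change need not equal the ratio of the mean FPKM values.

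The libraries also differed in markers of other cells. The summed level of 10 genes of the T cell receptor complex and CD4 was 2284 to 2331 FPKM in Control, 2129 to 2243 in Metformin, 1904 to 2019 in FK506 and 1994 to 2096 in Metformin+FK506, so these markers of the labelled cells were abundant in every library. The sum of 10 macrophage and monocyte markers was 6.59 to 6.77 FPKM in Control and 9.24 to 10.6 with Metformin, but 1369 to 1421 with FK506 and 926 to 1048 with Metformin+FK506. FK506 raised all 10 of them over Control, and 5 had at most 3 counts in every Control library and 5 in every Metformin library, with C1qa, C1qb, C1qc and Csf1r among them in either group. For 10 B cell markers the ranges were 52.9 to 54.9, 67.8 to 77.1, 845 to 893 and 411 to 441 FPKM, in the same order, with all 10 raised by FK506. The CD8 genes Cd8a and Cd8b1 summed to 9.01 to 9.52 FPKM in Control, 12.9 to 13.2 in Metformin, 6.84 to 7.35 in FK506 and 6.93 to 8.64 in Metformin+FK506. The methods state that CD4+ cells were purified on magnetic columns with beads against CD4, a step that enriches T cells over these other cells before culture. The part of other cells in the changes against Control was not tested, and in bulk RNA fewer cells of a type and less RNA per cell cannot be told apart.

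**Figure D1:**
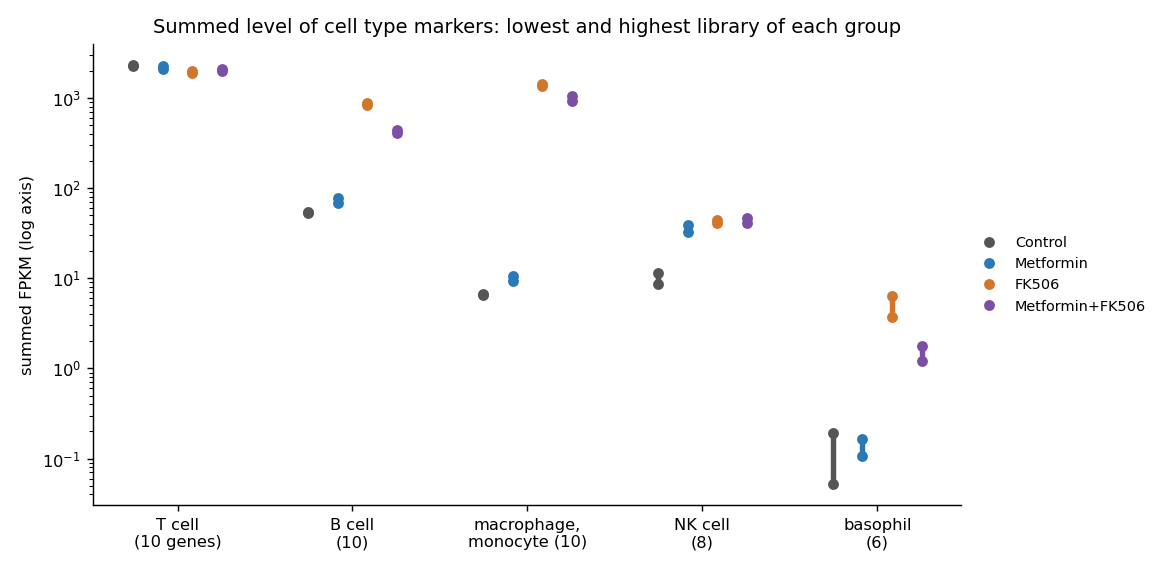
Summed FPKM (log axis) of markers of T cells, B cells, macrophages and monocytes, NK cells and basophils, with the lowest and the highest library of each group joined by a line (n = 3 libraries a group). T cell markers lie close together in the 4 groups, whereas the macrophage sum is at most 10.6 without FK506 and at least 926 with it.

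Tbx21 (gene ID 57765, chr11:97098007-97115331 in GRCm38.p6) encodes T-bet, the factor that defines the Th1 lineage. Its level was 24.7, 22.9 and 24.0 FPKM in the 3 Control libraries, 17.5, 17.4 and 18.0 with Metformin, 3.64, 3.12 and 4.30 with FK506, and 5.55, 4.79 and 5.001 with Metformin+FK506. No group overlapped another, and the order from lowest to highest was FK506, Metformin+FK506, Metformin, Control. Against Control, Tbx21 fell by 2.92 on the log2 scale with FK506 (SE 0.086, edgeR adjusted p = 1.18e-14) and by 0.47 with Metformin (SE 0.076, edgeR adjusted p = 6.53e-05). With both drugs it fell by 2.42 (SE 0.083, edgeR adjusted p = 8.68e-14).

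Ifng (gene ID 15978, chr10:118441046-118445894) encodes interferon gamma, the cytokine of Th1 cells. It stood at 11.05, 10.9 and 10.3 FPKM in Control, 7.43, 6.80 and 7.69 in Metformin, 3.58, 2.97 and 2.39 in FK506, and 4.88, 5.16 and 3.96 in Metformin+FK506. The groups kept the order seen for Tbx21 without overlap, and the nearest libraries of different groups were FK506 at 3.58 and Metformin+FK506 at 3.96. Ifng fell by 2.06 on the log2 scale with FK506 (SE 0.14, edgeR adjusted p = 5.49e-10), by 0.59 with Metformin (SE 0.13, edgeR adjusted p = 0.00102) and by 1.38 with both (SE 0.13, edgeR adjusted p = 5.72e-08). Within libraries the ratio of Ifng to Tbx21 FPKM was 0.431 to 0.473 in Control, 0.392 to 0.427 in Metformin, 0.555 to 0.984 in FK506 and 0.793 to 1.08 in Metformin+FK506, so that the libraries with FK506 lay above those without it.

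Runx3 (gene ID 12399, chr4:135120645-135177990) encodes the Runt factor that works with T-bet at Ifng and silences Il4. Control libraries held 66.1, 70.2 and 66.0 FPKM, Metformin libraries 31.7, 30.6 and 30.9, FK506 libraries 21.2, 23.1 and 21.5, and Metformin+FK506 libraries 20.7, 20.1 and 23.2. Control stood far above the rest, Metformin lay between, and the FK506 and Metformin+FK506 libraries overlapped. Runx3 fell by 1.84 with FK506 (SE 0.040, edgeR adjusted p = 2.72e-16) and by 1.20 with Metformin (SE 0.039, edgeR adjusted p = 3.75e-13). Only 9.52% of the genes tested had an absolute change as large as that of Runx3 with Metformin.

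Hlx (gene ID 15284, chr1:184727143-184732493) encodes a homeobox factor that cooperates with T-bet. Its level was the lowest of the 4 transcription factors in every group but FK506, with 0.721, 0.828 and 0.983 FPKM in Control, 0.0562, 0.153 and 0.221 in Metformin, 4.32, 4.79 and 5.53 in FK506, and 2.34, 2.80 and 3.15 in Metformin+FK506. The order was Metformin, Control, Metformin+FK506, FK506, without overlap. Hlx rose with FK506 by a log2 fold change of 2.30 (SE 0.22, edgeR adjusted p = 5.03e-08) and with both drugs by 1.51 (SE 0.22, edgeR adjusted p = 8.31e-06), whereas it fell by 2.54 with Metformin (SE 0.29, edgeR adjusted p = 1.64e-06). The Metformin value rests on 7 to 29 counts a library, against 82 to 132 in Control. On log2(FPKM + 1) values it was -0.69, and the rise with FK506 was 1.34 on the same scale after quantile normalization, both still called.

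**Figure D2:**
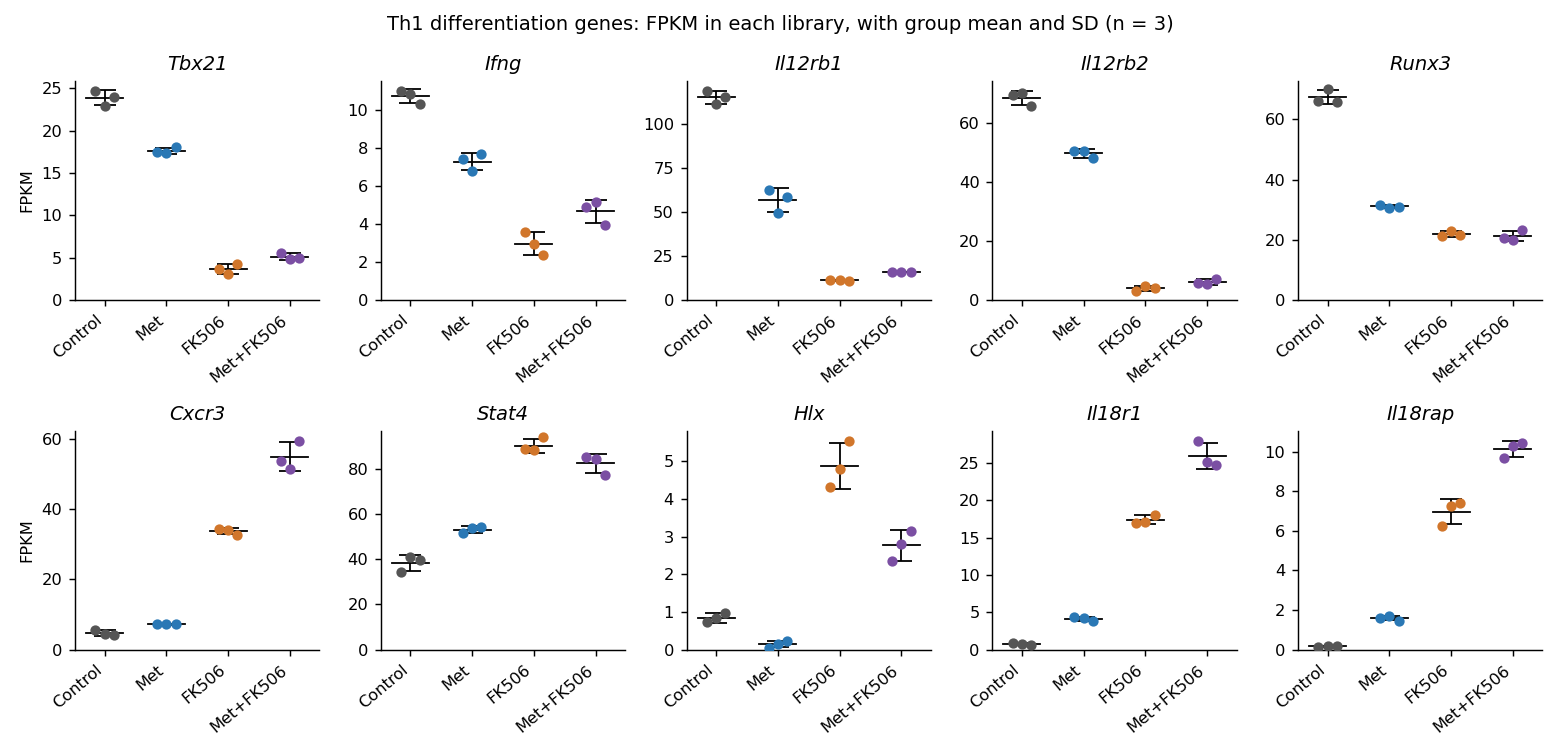
FPKM (linear axes from 0) of the 10 Th1 differentiation genes in each of the 12 libraries, with the group mean and SD (n = 3); Met stands for Metformin. The upper 5 genes are highest in Control, and the lower 5 are highest in a group that received FK506.

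The promoters of Tbx21, Ifng, Cxcr3 and Il18rap are shown because the first pair fell and the second pair rose with an inhibitor of the NFAT pathway. Each is the 250 bases before the RefSeq start site on GRCm38.p6, written along the gene's strand, with the NFAT core GGAAA, or TTTCC where it lies on the opposite strand, in capitals. They lie at chr11:97115332-97115581 (minus strand), chr10:118440796-118441045 (plus), chrX:101734148-101734397 (minus) and chr1:40515112-40515361 (plus).
Tbx21: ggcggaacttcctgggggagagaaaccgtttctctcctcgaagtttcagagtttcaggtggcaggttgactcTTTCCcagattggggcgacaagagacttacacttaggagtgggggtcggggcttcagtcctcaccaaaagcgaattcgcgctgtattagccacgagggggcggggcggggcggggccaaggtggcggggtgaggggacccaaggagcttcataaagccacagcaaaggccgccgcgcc
Ifng: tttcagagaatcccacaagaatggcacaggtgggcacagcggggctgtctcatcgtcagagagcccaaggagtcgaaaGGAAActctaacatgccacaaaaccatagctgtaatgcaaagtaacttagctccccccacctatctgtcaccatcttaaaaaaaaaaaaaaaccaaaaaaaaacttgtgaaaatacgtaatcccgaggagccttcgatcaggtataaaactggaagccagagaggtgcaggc
Cxcr3: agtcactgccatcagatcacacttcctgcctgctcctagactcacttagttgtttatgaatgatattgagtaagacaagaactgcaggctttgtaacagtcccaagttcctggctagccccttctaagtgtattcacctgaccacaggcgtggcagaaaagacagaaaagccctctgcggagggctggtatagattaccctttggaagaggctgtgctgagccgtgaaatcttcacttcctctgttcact
Il18rap: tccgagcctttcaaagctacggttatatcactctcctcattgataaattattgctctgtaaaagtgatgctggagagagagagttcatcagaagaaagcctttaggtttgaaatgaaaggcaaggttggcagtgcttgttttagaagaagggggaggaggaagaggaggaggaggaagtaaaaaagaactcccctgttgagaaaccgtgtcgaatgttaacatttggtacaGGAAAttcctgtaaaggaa
The core was present once in the Tbx21, Ifng and Il18rap windows and not in that of Cxcr3. Among the other genes with a window, Stat4, Hlx and Il18r1 held it at every start site listed, and Il12rb2 and Runx3 did not hold it. It was thus found, and not found, among genes that fell and among genes that rose, and 55.6% of 27025 mouse promoters hold it. The STAT motif TTCNNNGAA, present in 7.18% of those promoters, was found in the windows of Ifng and Il12rb2 and, at 2 places, at the third start site of Il18r1. The T-box letters TCACAC, present in 12.2%, were found in Cxcr3 and Il12rb2, and the AP-1 motif TGANTCA, present in 6.87%, was found in none of the 9 genes with a window. Both strands were searched, and a window without a match lacks only these letters. Il12rb1 had no entry in the promoter table.

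The IL-12 receptor pair had the largest falls of the 10 genes with FK506. Il12rb1 (gene ID 16161, chr8:70808360-70823542), the chain shared with the IL-23 receptor, held 119, 111 and 116 FPKM in Control, 62.6, 49.7 and 58.5 in Metformin, 11.6, 11.3 and 10.8 in FK506, and 15.7, 16.1 and 16.0 in Metformin+FK506. Il12rb2 (gene ID 16162, chr6:67285986-67376293), the signalling chain that binds STAT4, held 69.4, 70.0 and 65.5 FPKM in Control, 50.3, 50.5 and 48.0 in Metformin, 3.07, 4.70 and 4.18 in FK506, and 5.64, 5.50 and 7.11 in Metformin+FK506. Both had the order of Tbx21 and Ifng, with no overlap between groups.

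With FK506, Il12rb2 fell by 4.21 on the log2 scale (SE 0.043, edgeR adjusted p = 9.76e-20), which is 18.5-fold, and Il12rb1 fell by 3.37 (SE 0.046, edgeR adjusted p = 1.3e-18), which is 10.3-fold. With Metformin the order of the chains turned, since Il12rb1 fell by 0.97 (SE 0.041, edgeR adjusted p = 8.66e-12) and Il12rb2 by 0.54 (SE 0.036, edgeR adjusted p = 2.59e-09). The ratio of Il12rb1 to Il12rb2 FPKM was 1.59 to 1.76 in Control, 0.984 to 1.24 in Metformin, 2.41 to 3.77 in FK506 and 2.24 to 2.92 in Metformin+FK506. The difference between the chains was not tested. The transcript length behind the FPKM of Il12rb2 varied from 6142 to 8960 bases among the FK506 libraries, and 3.07 FPKM stood for 1740 counts in the first of them while 4.70 stood for 1708 in the second. The span of Il12rb2 overlaps that of Serbp1 by 3317 bases, and whether strand was used in counting is not stated.

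Stat4 (gene ID 20849, chr1:51987106-52107189) encodes the factor that carries the IL-12 signal to the nucleus, and it moved against its receptor in the comparisons with Control. Its level was 34.3, 41.1 and 39.8 FPKM in Control, 51.4, 53.7 and 54.0 in Metformin, 88.6, 88.0 and 93.7 in FK506, and 85.3, 84.3 and 77.2 in Metformin+FK506. Every treated library lay above every Control library. Stat4 rose by a log2 fold change of 1.01 with FK506 (SE 0.060, edgeR adjusted p = 1.22e-10), 0.43 with Metformin (SE 0.060, edgeR adjusted p = 1.29e-05) and 0.91 with both (SE 0.060, edgeR adjusted p = 5.03e-10). The ratio of Stat4 to Tbx21 FPKM within a library went from 1.39 to 1.79 in Control to 2.94 to 3.10 with Metformin, 21.8 to 28.2 with FK506 and 15.4 to 17.6 with Metformin+FK506.

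By edgeR, the IL-18 receptor pair had the largest rises of the 10 genes in each comparison with Control. Il18r1 (gene ID 16182, chr1:40465552-40500854), the chain that binds IL-18, stood at 0.916, 0.749 and 0.670 FPKM in Control, 4.36, 4.20 and 3.84 in Metformin, 16.9, 17.2 and 18.0 in FK506, and 27.9, 25.2 and 24.8 in Metformin+FK506. Il18rap (gene ID 16174, chr1:40515362-40551707), the accessory chain that completes the receptor, stood at 0.147, 0.182 and 0.205 FPKM in Control, 1.62, 1.71 and 1.47 in Metformin, 6.24, 7.25 and 7.41 in FK506, and 9.69, 10.3 and 10.4 in Metformin+FK506. Both genes climbed from Control through Metformin and FK506 to Metformin+FK506 with no overlap, and their spans lie 14508 bases apart.

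Il18rap rose by a log2 fold change of 5.02 with FK506 (SE 0.12, edgeR adjusted p = 4.63e-16), 3.09 with Metformin (SE 0.12, edgeR adjusted p = 4.04e-12) and 5.59 with both (SE 0.11, edgeR adjusted p = 1.25e-16). Il18r1 rose by 4.34 with FK506 (SE 0.090, edgeR adjusted p = 1.38e-16), 2.38 with Metformin (SE 0.095, edgeR adjusted p = 3.81e-12) and 4.94 with both (SE 0.090, edgeR adjusted p = 3.12e-17). These sizes depended on the scale, since Il18rap with both drugs was 2.97 on quantile normalized log2(FPKM + 1) values, below the 3.17 of Cxcr3 there. Of the genes tested, 1.86% had an absolute change as large as that of Il18rap with Metformin and 3.03% as large as that of Il18r1. The sum of 8 NK cell markers, of which Eomes also stands among the other Th1 factors below, was 8.67 to 11.4 FPKM in Control, 32.5 to 39.4 in Metformin, 41.0 to 44.6 in FK506 and 41.4 to 46.7 in Metformin+FK506, and its part in the rise of the IL-18 receptor was not tested. Of the 8 markers 5 were expressed enough to test, of which 5 were higher with Metformin, 4 were higher and 1 lower with FK506, and 3 were higher and 2 not called with both drugs. Klrd1, the CD94 chain of NK receptors, averaged 3.14 FPKM in Control, 20.2 in Metformin, 19.8 in FK506 and 18.3 in Metformin+FK506, and Klrc1, its NKG2A partner, averaged 1.49, 5.66, 6.04 and 8.86. The untested Klrb1c (NK1.1) was listed at 0 in Control and averaged 0.0478, 0.329 and 0.664 FPKM in the other groups in the same order, and Ncr1 averaged at most 0.197 in any group.

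Cxcr3 (gene ID 12766, chrX:101731535-101734147), a target of T-bet, went against Tbx21 in the comparisons with Control. It held 5.65, 4.55 and 4.03 FPKM in Control, 7.18, 7.20 and 7.32 in Metformin, 34.5, 34.0 and 32.7 in FK506, and 53.7, 51.5 and 59.6 in Metformin+FK506. The groups rose in that order without overlap. The log2 fold change was 2.62 with FK506 (SE 0.085, edgeR adjusted p = 3.85e-14), 0.58 with Metformin (SE 0.091, edgeR adjusted p = 4.13e-05) and 3.34 with both drugs (SE 0.085, edgeR adjusted p = 1.83e-15).

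**Figure D3:**
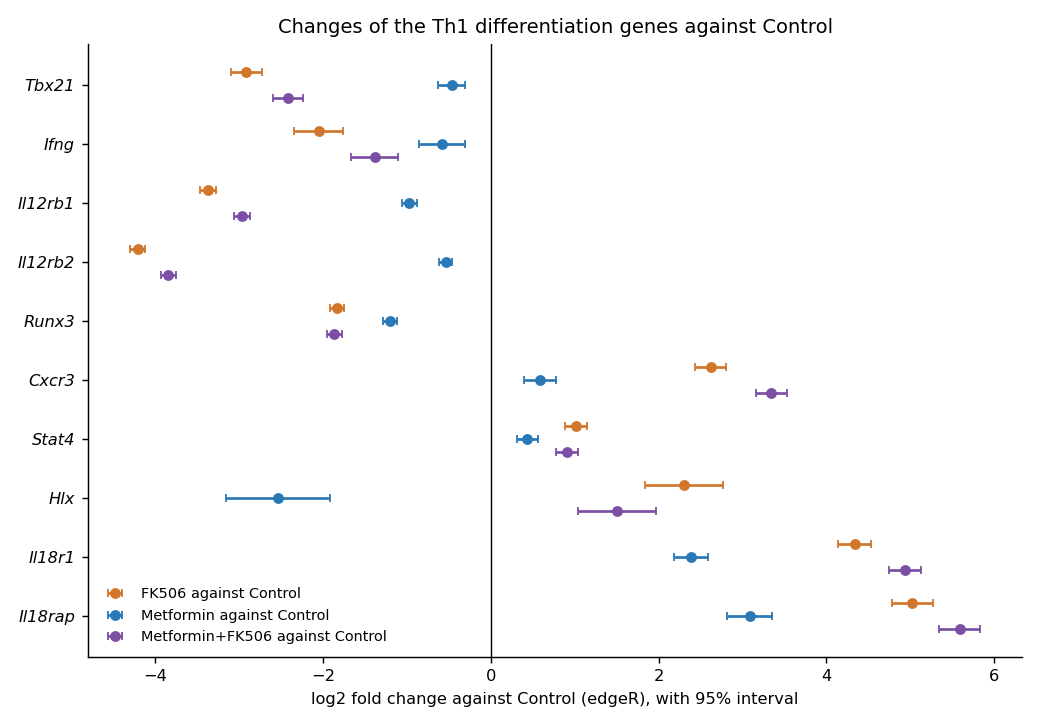
Log2 fold change against Control (edgeR, with its 95% interval) of the 10 genes with FK506, Metformin and Metformin+FK506, all against the same 3 Control libraries. With FK506 the genes run from -4.21 (Il12rb2) to 5.02 (Il18rap), and Hlx is the gene whose Metformin and FK506 points lie on opposite sides of 0.

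Against Control, then, all 10 genes were called with FK506, 5 higher and 5 lower, where 80.9% of all genes tested were called (41.3% higher and 39.6% lower). With Metformin 4 were higher and 6 lower, where 56% of all genes were called (28.6% higher and 27.4% lower). With Metformin+FK506 5 were higher and 5 lower, where 81.7% were called (42.1% higher and 39.6% lower). Most genes were called in these comparisons, so a call by itself sets these 10 little apart. An absolute log2 fold change of at least 1 was reached by 10 of the 10 with FK506, 4 with Metformin and 9 with Metformin+FK506, against 37.2%, 12.5% and 38.1% of all genes tested. The median log2 fold change of the 10 was -0.41 with FK506, -0.51 with Metformin and -0.24 with both drugs, beside 0.024, 0.011 and 0.033 over all genes, and it averages over genes that went opposite ways.

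The make-up of the set changed with these shifts. The 10 genes summed to 331 FPKM in Control, 229 in Metformin, 197 in FK506 and 229 in Metformin+FK506. All genes together summed to 477754 to 482072 FPKM a library in Control and 491465 to 503231 in Metformin. They summed to 401972 to 414061 in FK506 and 393339 to 404703 in Metformin+FK506. The order of the treated groups in the sum of the 10 genes therefore depends on the scale. The IL-12 receptor chains made up 55.5% ± 1.15 (SD, n = 3) of the sum of the 10 genes in Control, 46.5% ± 1.54 in Metformin, 7.73% ± 0.364 in FK506 and 9.60% ± 0.407 in Metformin+FK506. The IL-18 receptor chains made up 0.289% ± 0.0275, 2.51% ± 0.181, 12.4% ± 0.375 and 15.8% ± 0.491 in the same groups. Cxcr3 and Stat4 together made up 13.0% ± 0.903 in Control and 62.9% ± 0.719 with FK506.

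The ratio of Il18r1 to Il12rb1 FPKM, which sets an IL-18 receptor chain against the IL-12 receptor chain shared with the IL-23 receptor, was 0.00580 to 0.00768 in Control. It was 0.0657 to 0.0846 with Metformin, 1.46 to 1.67 with FK506 and 1.55 to 1.78 with Metformin+FK506. The FK506 and Metformin+FK506 libraries overlapped in this ratio, and the other groups did not. With Il12rb2 in place of Il12rb1 the ratio was 0.0102 to 0.0132 in Control and 0.0801 to 0.0868 with Metformin. It was 3.65 to 5.49 with FK506 and 3.48 to 4.95 with Metformin+FK506. Within the IL-18 receptor, the ratio of Il18r1 to Il18rap was 2.46 to 2.69 with Metformin, 2.37 to 2.71 with FK506 and 2.37 to 2.88 with both, while in Control, where Il18rap had 39 to 64 counts, it was 3.27 to 6.21.

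**Figure D4:**
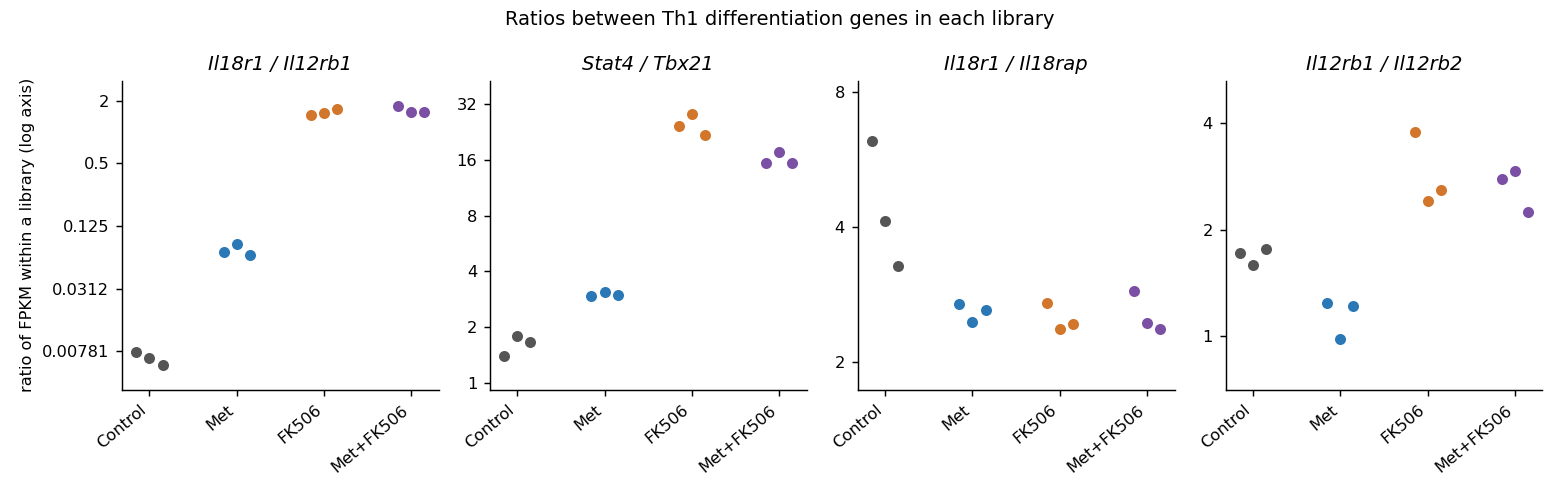
Ratio of FPKM values within each of the 12 libraries (log axes) for 4 pairs of genes, with Met standing for Metformin. Il18r1 to Il12rb1 is at most 0.00768 in Control and at least 1.46 where FK506 was present, whereas Il18r1 to Il18rap lies between 2.37 and 2.88 in all 9 treated libraries.

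The comparison of Metformin+FK506 with FK506 asks what metformin adds under calcineurin inhibition. Here 7 of the 10 genes were higher, 1 was lower and 2 were not called, where 30.7% of all genes were called (15.6% higher and 15% lower), and none reached an absolute log2 fold change of 1, as 5.65% of all genes did. The median change of the 10 was 0.45, beside 0.0019 over all genes. Cxcr3 rose by a log2 fold change of 0.73 (SE 0.073, edgeR adjusted p = 1.45e-06), Ifng by 0.67 (SE 0.14, edgeR adjusted p = 0.00156), Il18r1 by 0.60 (SE 0.066, edgeR adjusted p = 3.87e-06) and Il18rap by 0.57 (SE 0.079, edgeR adjusted p = 4.29e-05). Tbx21 rose by 0.50 (SE 0.090, edgeR adjusted p = 0.000457), Il12rb1 by 0.40 (SE 0.045, edgeR adjusted p = 4e-06) and Il12rb2 by 0.36 (SE 0.042, edgeR adjusted p = 6.54e-06). Hlx fell by 0.79 (SE 0.20, edgeR adjusted p = 0.00654). For Stat4 the change was -0.11 with a 95% interval from -0.23 to 0.020 (edgeR adjusted p = 0.195), though it was -0.19 and called with counts scaled to T cell genes (edgeR adjusted p = 0.0349, range over all alternatives 0.0349 to 0.502). For Runx3 it was -0.03 with an interval from -0.12 to 0.055 (edgeR adjusted p = 0.618). The marker lists moved in this comparison too. All 10 B cell markers were lower with Metformin+FK506 than with FK506, at a median log2 fold change of -0.99, and of the 10 macrophage markers 3 were higher, 2 lower and 5 not called. Of 10 genes of the T cell receptor complex and CD4, 4 were higher, 3 lower and 3 not called, the 4 being Cd3e (0.34), Cd4 (0.30), Cd3g (0.25) and Lck (0.23). Of the 5 dendritic cell markers tested, 4 were lower and 1 higher, at a median of -0.61, and Mcpt8, a basophil protease, averaged 2.91 FPKM with FK506 and was listed at 0 in every Metformin+FK506 library. Of the 5 NK cell markers tested, Klrk1 (0.61) and Klrc1 (0.58) were higher and 3 were not called. The part of these shifts in the changes of the members was not tested.

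Set against Metformin alone, Metformin+FK506 showed what FK506 adds. Of the 10 genes, 5 were higher and 5 lower, where 78.2% of all genes were called (40.3% higher and 37.9% lower). Hlx stood 4.04 higher on the log2 scale (SE 0.27, edgeR adjusted p = 8.27e-10), against Metformin libraries of 7 to 29 counts, and 1.39 higher, still called, on quantile normalized log2(FPKM + 1) values. The falls ran from -3.31 for Il12rb2 (SE 0.041, edgeR adjusted p = 1.07e-18) to -0.67 for Runx3 (SE 0.040, edgeR adjusted p = 1.65e-10), which was -0.22, still called, on log2(TPM + 1) values. FK506 alone against Metformin alone called the 10 genes as 5 higher and 5 lower too, where 78.4% of all genes were called (39.9% higher and 38.6% lower), so that in the order of the 4 group levels only the FK506 and Metformin+FK506 levels of Stat4 and of Runx3 were neighbours whose difference did not pass the test, that of Stat4 passing it when counts were scaled to T cell genes.

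The interaction of the drugs, the change with metformin in the presence of FK506 minus that in its absence, was called for 9 of the 10 genes, 6 positive and 3 negative, where 46.5% of all genes were called (22.5% positive and 24% negative). For Tbx21, Ifng, Il12rb1 and Il12rb2 metformin lowered the gene alone and raised it under FK506, and the difference between its effects was 0.97, 1.26, 1.38 and 0.90 on the log2 scale (edgeR adjusted p between 2.77e-11 and 4.59e-05). Stat4 rose with metformin alone and was not called under FK506, with a difference of -0.54 (SE 0.084, edgeR adjusted p = 6.59e-05). Runx3 had a difference of 1.17 (SE 0.056, edgeR adjusted p = 7.7e-11), with a fall by 1.20 without FK506 and a change of -0.03, not called, under it. For Il18r1 and Il18rap metformin raised the gene in both settings, by less under FK506, with differences of -1.78 (SE 0.12, edgeR adjusted p = 3.74e-09) and -2.52 (SE 0.15, edgeR adjusted p = 1.08e-09), which were -0.84 and -0.56, still called, on quantile normalized log2(FPKM + 1) values. Cxcr3 was raised in both settings, and the difference of 0.14 was not called (95% interval -0.11 to 0.39, edgeR adjusted p = 0.342) and was -0.058, also not called, with counts scaled to T cell genes, but 0.30 and called on quantile normalized log2(FPKM + 1) values (limma adjusted p = 0.0423, range over all alternatives 0.0423 to 0.973). Hlx was lowered in both settings, with a difference of 1.74 (SE 0.36, edgeR adjusted p = 0.000848) that was 0.045 and not called on log2(FPKM + 1) values (limma adjusted p = 0.824, range over all alternatives 8.01e-07 to 0.824). Markers of other cells had called interactions too. Of 5 NK cell markers tested, 4 were negative and 1 not called (median -2.12), and of 10 B cell markers 9 were negative and 1 not called (median -1.44). Of 10 macrophage markers, 2 were positive, 2 negative and 6 not called. The part of these shifts in the interactions of the members was not tested.

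**Figure D5:**
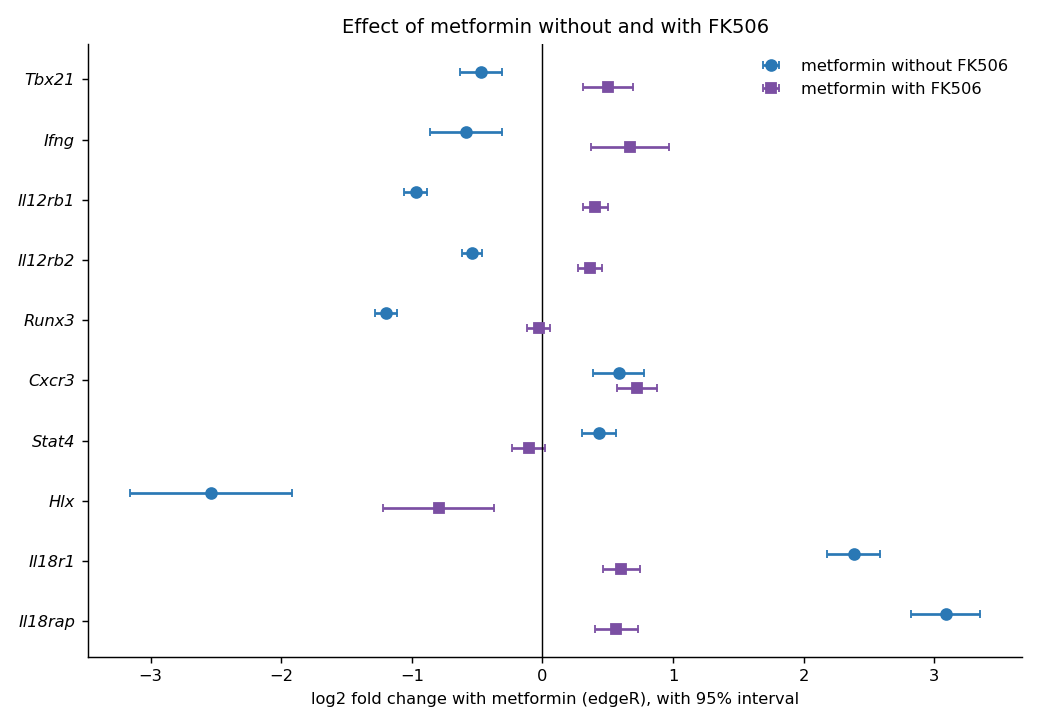
Log2 fold change with metformin (edgeR, with its 95% interval) in the absence of FK506 (Metformin against Control, circles) and in its presence (Metformin+FK506 against FK506, squares). The points of Tbx21, Ifng, Il12rb1 and Il12rb2 lie on opposite sides of 0, and those of Cxcr3 have overlapping intervals.

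The other genes of these pathways were taken from lists written with earlier results of these data known. Of 10 genes for IL-12 family ligands, other receptors and kinases, 9 were tested and Il27 was not. With FK506 6 were higher and 3 lower, with Metformin 4 were higher, 2 lower and 3 not called. Il12b, the p40 chain of IL-12, was listed at 0 in every Control library and averaged 0.0594 FPKM with Metformin, 5.26 with FK506 and 15.5 with Metformin+FK506. The macrophage sum given above was higher with FK506 too. From FK506 to Metformin+FK506, Il12b rose by 1.58 on the log2 scale (SE 0.096, edgeR adjusted p = 2.59e-08). Of the 10 macrophage markers, 3 were higher, 2 lower and 5 not called in that comparison, from C1qc at 0.39 to Lyz2 at -0.84. Lyz2, the most abundant of them, averaged 981 FPKM with FK506 and 539 with Metformin+FK506. The part of macrophages in the rise of Il12b was not tested. Of 8 dendritic cell markers 5 were tested, with 4 higher and 1 lower with FK506, among them Itgax at 7.02 and Flt3 at 5.35, and their part was not tested. Jak2 and Tyk2, the kinases bound to the IL-12 receptor, went opposite ways with FK506, Jak2 by -1.03 (SE 0.034, edgeR adjusted p = 5.41e-14) and Tyk2 by 1.00 (SE 0.045, edgeR adjusted p = 2.74e-12). Il23r, which pairs with the Il12rb1 chain in the IL-23 receptor, rose by 4.997 (SE 0.19, edgeR adjusted p = 4.34e-13), from 0.118 to 4.60 FPKM, and Il23a, the p19 chain of IL-23, fell by 4.78 (SE 0.70, edgeR adjusted p = 9.75e-06), from 1.36 to 0.0496 FPKM.

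Among 8 genes for IL-18, its decoy and its signalling, 6 were higher, 1 lower and 1 not called with FK506, and 2 were higher, 2 lower and 4 not called with Metformin. The largest rise with FK506 was that of Il18bp, the soluble decoy that binds IL-18, at 2.80 (SE 0.11, edgeR adjusted p = 4.58e-13), from 1.91 to 16.3 FPKM, and the fall was that of Traf6, a ubiquitin ligase of the pathway, at -0.83 (SE 0.045, edgeR adjusted p = 3.37e-11). Metformin+FK506 against FK506 left 6 of the 8 not called, where 30.7% of all genes tested were called. The IL-18 receptor genes sit in the IL-1 receptor gene cluster of chromosome 1, where Il1r1, the IL-1 receptor, rose by 5.58 with FK506 (SE 0.16, edgeR adjusted p = 1.19e-14) but had a change of -0.51 with Metformin that was not called (edgeR adjusted p = 0.145). Of the 6 genes of the cluster, the IL-18 receptor pair included, 5 were higher and 1 not called with FK506, and 3 were higher and 3 not called with Metformin.

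Of 10 genes for the interferon gamma receptor and its response, 7 were higher and 3 lower with FK506, and 4 were higher and 6 lower with Metformin. Ifngr1, the ligand-binding receptor chain, rose from 28.7 FPKM in Control to 61.8 with Metformin and 115 with FK506 (log2 fold changes 1.07 and 1.79, edgeR adjusted p = 7.17e-12 and 1.7e-15). Cxcl9 and Cxcl10, ligands of CXCR3, rose with FK506 by 6.67 and 1.62 and fell with Metformin by 1.52 and 1.12 (edgeR adjusted p = 4.95e-14, 2.72e-09, 0.0299 and 2.96e-06), with Cxcl9 at no more than 10 counts a library in Control and 5 with Metformin. Socs1, which restrains the receptor, fell by 2.00 with FK506 (edgeR adjusted p = 8.02e-13). In this group too the macrophage and B cell sums moved with FK506, and their part was not tested.

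Among 13 other factors that act at Th1 genes, 5 were higher, 4 lower and 4 not called with FK506, and 3 were higher, 7 lower and 3 not called with Metformin. Eomes, the T-box factor related to T-bet, rose from 1.22 FPKM in Control to 5.01 with Metformin and 13.5 with FK506, by 2.00 and 3.25 on the log2 scale (SE 0.087 and 0.085, edgeR adjusted p = 1.06e-11 and 2.64e-15), and so went against Tbx21 in these comparisons. Irf4, a factor induced through the T cell receptor, fell by 2.41 with FK506 (SE 0.046, edgeR adjusted p = 4.55e-17).

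Of 14 Th1 effector genes, 3 were higher and 11 lower with FK506, and 4 were higher, 8 lower and 2 not called with Metformin. Gzmb, the cytotoxic protease granzyme B, fell from 753 to 17.2 FPKM with FK506, by 5.66 on the log2 scale (SE 0.18, edgeR adjusted p = 2.78e-14). Cxcr6, a chemokine receptor, rose from 0.769 to 31.3 FPKM with FK506, by 5.11 (SE 0.080, edgeR adjusted p = 5.01e-18), and reached 55.8 with Metformin+FK506. With Metformin the extremes were Xcl1, a chemokine, at 3.70 (SE 0.33, edgeR adjusted p = 8.95e-08), and Gzma, granzyme A, at -2.35 (SE 0.27, edgeR adjusted p = 1.37e-06).

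Of 9 factors and cytokines of other helper lineages, 6 were higher and 3 lower with FK506, and 2 were higher, 5 lower and 2 not called with Metformin. The genes that fell with FK506 belong to Th2 cells, with log2 fold changes of -1.95 for Gata3, -6.57 for Il4 and -7.62 for Il13 (edgeR adjusted p = 1.74e-16, 7.81e-12 and 2.78e-17). Foxp3, the factor of regulatory T cells, rose by 2.72 with FK506 (SE 0.075, edgeR adjusted p = 5.04e-15). With Metformin, Foxp3 fell by 0.52 (SE 0.084, edgeR adjusted p = 6.72e-05).

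Pearson's r of log2(FPKM + 1) over the 12 libraries was used to describe which genes had profiles most like those of 5 of the members. The libraries share 4 groups, so these values describe the group pattern. Tbx21 was most like Ankrd46 (r = 0.997), Lamc1 (0.995) and Gemin8 (0.994), and Ifng was most like Lman1 (0.984), Plscr3 (0.981) and Rbm7 (0.980). Il12rb2 was most like Tbkbp1 (0.998), Vegfa (0.997) and Timm8b (0.997). Tbkbp1 lies 20839 bases from Tbx21 on chromosome 11, and its mean level was 24.8 FPKM in Control, 20.9 in Metformin, 1.82 in FK506 and 2.91 in Metformin+FK506. Stat4 was most like Rnf185 (0.995), Larp7 (0.995) and Ppp3ca (0.994), the last of which encodes a catalytic subunit of calcineurin, the target of FK506. Il18r1 was most like Sqstm1 (0.999), Nt5e (0.999) and its neighbour Il18rap (0.997).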

How the data were processed

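For 45777 genes in 12 libraries the authors deposited raw counts, FPKM and TPM, and the submitters' processing notes name bcl2fastq 2.20.0, Trimmomatic, HISAT2 2.1.0, StringTie 2.1.3b and the build mm10. How shared reads and strand were counted is not given in the sources used here. The 18141 genes at 0 in every library were not tested in the reported fit, which kept genes with FPKM of at least 0.5 in at least 3 libraries (15197). Counts were fitted with edgeR 4.0.16 (TMM, glmQLFit and glmQLFTest, 8 residual degrees of freedom) in R 4.3.3, tested on simulated data beforehand. The authors' FPKM values served for levels, and intervals are t-based at 95%. Alternatives used DESeq2 1.42.0, limma 3.58.1 on log2(FPKM + 1) and log2(TPM + 1), other scalings, filters, a replicate block and left-out libraries. The limma fit on TPM values and the contrast of FK506 with Metformin were added after the data had been seen. The members and lists were chosen with earlier results of these data known. Named genes were the 10 members, list genes (the largest rise and fall, or a role the text needs) and the 3 genes most correlated with 5 members. Replicates differed by more than sampling noise (chi-square per degree of freedom 4.19 to 17.1). Promoters came from RefSeq on GRCm38.p6, with 9 of 10 members matched. Depth was 43402632 to 64290105 counts a library.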

Additional observations from a re-analysis of the deposited data

Results flagged for a closer look

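The change with metformin differed between cultures with and without FK506, by the interaction test of edgeR, for 9 of the 10 genes, where 46.5% of all genes tested were called (22.5% positive and 24% negative). On the log2 scale the change under FK506 minus that without it was 0.97 for Tbx21, 1.26 for Ifng, 1.38 for Il12rb1, 0.90 for Il12rb2, 1.17 for Runx3 and 1.74 for Hlx. The Hlx value was 0.045 on log2(FPKM + 1), 0.054 after quantile normalization and 0.39 on log2(TPM + 1), and not called on any of these (limma adjusted p = 0.824, 0.796 and 0.121). It was -0.54 for Stat4, -1.78 for Il18r1 and -2.52 for Il18rap. Stat4 rose by 0.43 with Metformin alone, and its change of -0.11 under FK506 was not called.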

How the results depend on the processing

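Of 1490 log2 fold changes recomputed under the alternatives, 1484 kept their direction and their side of the threshold. Their sizes moved most for genes low in a group: on log2(FPKM + 1) values, as given or quantile normalized, Il18rap with FK506 came down to 2.44 from 5.02, with Metformin to 1.09 from 3.09 and in the interaction to -0.56 from -2.52, Il18r1 in the interaction to -0.84 from -1.78, and Hlx to 1.34 from 2.30 with FK506, to -0.69 from -2.54 with Metformin, to 0.70 from 1.51 with both drugs and to 1.39 from 4.04 for Metformin+FK506 against Metformin. Other called values that moved by over 1.5 times were Il18rap with both drugs (2.97 from 5.59), Il18r1 (1.45 from 2.38) and Il12rb2 (-0.34 from -0.54) with Metformin after quantile normalization, Il12rb2 for Metformin+FK506 against FK506 (0.61 from 0.36) on log2(FPKM + 0.1), and on log2(TPM + 1) Ifng with both drugs (-0.89 from -1.38) and, for Metformin+FK506 against Metformin, Runx3 (-0.22 from -0.67), Ifng (-0.31 from -0.80) and Stat4 (0.95 from 0.47). Requiring an absolute log2 fold change of at least 1 left 4 of the 10 genes changed with Metformin against Control and 0 with Metformin+FK506 against FK506, where edgeR called 10 and 8 by the adjusted p alone. The interaction for Hlx was 0.045 on log2(FPKM + 1), 0.054 after quantile normalization and 0.39 on log2(TPM + 1), none of them called (limma adjusted p = 0.824, 0.796 and 0.121). The interaction for Cxcr3 was -0.058 when counts were scaled to T cell genes, the reverse of 0.14, and 0.30 and called after quantile normalization (limma adjusted p = 0.0423, range over all alternatives 0.0423 to 0.973). Stat4 in Metformin+FK506 against FK506 was -0.19 and called with T cell scaling (edgeR adjusted p = 0.0349, range 0.0349 to 0.502). T cell scaling moved the median over all genes to 0.51 with FK506 and 0.44 with Metformin+FK506 against Control. Leaving out each library changed no call of a member in the 6 comparisons for which alternatives were run, and none was run for FK506 against Metformin. Same-numbered libraries did not deviate together (r between -0.0713 and 0.05), and with the replicate number as a block the members called stayed 10 with FK506, 10 with Metformin, 10 with both drugs, 8 for Metformin+FK506 against FK506, 10 against Metformin and 9 for the interaction. The causes were not tested.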
